A study of Mus musculus with 6 samples.

Results

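The genes Kdr, Flt1, Tie1, Tek, Cdh5, Cldn5, Pecam1, Icam2, Emcn and Egfl7 mark endothelial cells, which line the blood vessels that enter a tooth germ. These 10 genes were taken by their RefSeq accessions from 17178 named genes of a whole-genome mouse array, on which 12 probes stood for them. The list was chosen by earlier results on these genes' log2 signals over the 6 scanner arrays, their difference between the labelled groups included, so that difference is given as a description and without a test. Total RNA came from tooth germs of the lower 1st molars of newborn 129/Sv mice (postnatal day 0), all labelled male, and 6 samples were hybridised to single-colour arrays. The labels give 3 of them as Perp-null, called PN1, PN2 and PN3 here, and 3 as wild type, called WT1, WT2 and WT3. Perp is a tetraspan protein found in the desmosomes of stratified epithelia, and the comparison asks which genes of the tooth germ differ in expression without it. The labels do not state which part of Perp was deleted, or from how many animals each sample was taken, and any p-value measures only the spread between these samples.

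Vessels grow when vascular endothelial growth factor binds its receptors on endothelial cells. Angiopoietins, acting through the TIE receptors, then steady the new vessel, while cadherin and claudin junctions seal the cells to each other. In a tooth germ, vessels surround the enamel organ and enter the dental papilla, the tissue that becomes the pulp. In RNA of a whole tooth germ, fewer endothelial cells and less RNA per endothelial cell cannot be told apart.

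The samples were deposited in a pair of forms, scanner files of spot intensities and a table of log2 values, and these disagreed about which sample is which. In the scanner files the 1 probe of Perp gave log2 signals, after the array's own 75th percentile was subtracted, between 5.87 and 5.97 on PN1, PN3, WT1 and WT3. It gave −6.81 on PN2 and −5.06 on WT2, so it went against the label on 3 arrays, PN1, PN3 and WT2. Perp followed all 6 labels in the value table, with 7.51, 8.24 and 7.26 in the columns labelled PN1, PN2 and PN3, against 17.01, 16.95 and 16.98 in those labelled WT1, WT2 and WT3. Xist, the RNA that silences an X chromosome in females, exceeded the Y-linked genes Ddx3y, Eif2s3y and Kdm5d on 3 of 6 samples in either form, against the male label. These were PN1, PN2 and WT2 among the scanner arrays, and PN1, PN3 and WT3 among the table's columns.

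Ranks over all 41174 gene probes showed how the forms relate. The order of the probes in 5 of the table's 6 columns was that of the raw spot signals of 1 scanner array (Spearman rho 1.0000), and for only 1 of these 5, WT1, was it the array of the same label. The column labelled PN1 ranked its probes as array WT2 did, column PN3 as array PN2, column WT2 as array WT3 and column WT3 as array PN1. Column PN2 had no such partner, its highest rho being 0.9798, and array PN3 partnered no column. No sample was moved to another group on these grounds, and samples were taken as labelled throughout. The 10 genes are given in both forms, but many results on other genes only for the scanner arrays. The arrays labelled Perp-null lay on 1 slide and those labelled wild type on another, so slide, scan and label cannot be told apart in the scanner files.

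On the scanner arrays all 10 genes were lower on average in the samples labelled Perp-null than in those labelled wild type, as were 61% of all 26676 features tested. The median difference over the 10 was −1.04 log2 units, a 2.06-fold lower signal, against −0.085 over all features. The value table gave the opposite direction, with 9 of the 10 genes higher in the columns labelled Perp-null, where 51.3% of features were higher, and a median difference of 0.31 against 0.013 over all features. What both forms shared was that the genes, apart from Pecam1, moved together from sample to sample, and that 1 hybridisation stood lowest. That was array PN1 in the scanner files, and its partner, column WT3, in the value table.

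**Figure D1:**
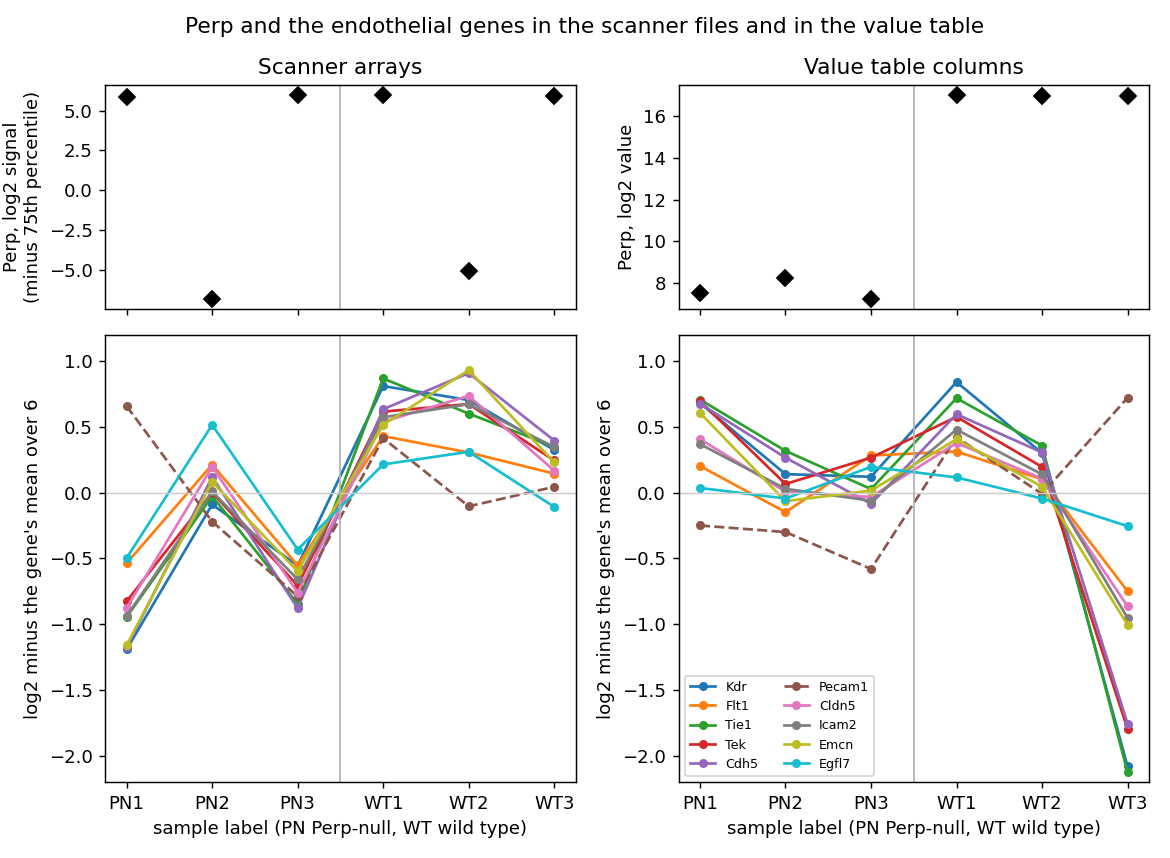
Perp (top) and the 10 endothelial genes (bottom) on the 6 scanner arrays (left) and in the 6 columns of the value table (right), by sample label. Perp is in log2 units, and each gene is drawn as its log2 value minus its own mean over the 6 samples. The genes other than Pecam1 (dashed) run together in both forms, with array PN1 the lowest for 8 of 10 and column WT3 the lowest for 9 of 10, while Perp follows the labels in the value table and not on PN1, PN3 and WT2 of the scanner files.

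Because the 4 receptors moved together, the 250 bases before their transcription starts are shown, from RefSeq promoters of build GRCm38.p6. Capitals mark AGGAAG or CGGAAG, or their reverse complements CTTCCT and CTTCCG, which are only some of the forms that sites for ETS factors can take. This family of transcription factors includes the endothelial regulators Erg, Fli1 and Ets1. The Kdr sequence is chr5:75978456-75978705 on the minus strand, that of Flt1 chr5:147726012-147726261 (minus), that of Tie1 chr4:118489850-118490099 (minus) and that of Tek chr4:94739039-94739288 (plus).
Kdr: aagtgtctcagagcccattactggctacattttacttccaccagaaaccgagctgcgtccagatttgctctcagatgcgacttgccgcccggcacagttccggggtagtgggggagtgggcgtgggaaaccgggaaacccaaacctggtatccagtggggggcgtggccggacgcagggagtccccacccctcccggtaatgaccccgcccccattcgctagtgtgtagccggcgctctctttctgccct
Flt1: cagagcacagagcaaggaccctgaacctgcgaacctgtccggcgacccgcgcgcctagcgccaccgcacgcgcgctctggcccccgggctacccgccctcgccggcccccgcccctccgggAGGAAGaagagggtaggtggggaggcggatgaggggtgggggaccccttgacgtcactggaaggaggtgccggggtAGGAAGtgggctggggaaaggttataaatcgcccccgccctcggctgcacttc
Tie1: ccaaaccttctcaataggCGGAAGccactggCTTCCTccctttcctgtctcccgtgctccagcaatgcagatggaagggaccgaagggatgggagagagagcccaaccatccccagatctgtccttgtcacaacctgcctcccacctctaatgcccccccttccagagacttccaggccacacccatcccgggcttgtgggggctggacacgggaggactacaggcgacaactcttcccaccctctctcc
Tek: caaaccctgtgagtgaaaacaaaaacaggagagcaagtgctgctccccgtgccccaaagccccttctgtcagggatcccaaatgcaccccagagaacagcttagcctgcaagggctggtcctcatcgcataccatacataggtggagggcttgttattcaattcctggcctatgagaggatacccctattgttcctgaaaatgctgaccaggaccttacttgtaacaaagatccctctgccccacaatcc
The capital letters begin 129 and 53 bases before the start of Flt1, and 232 and 219 bases before that of Tie1. The windows of Kdr and Tek hold neither motif, but other forms of ETS sites were not searched for. Of the 10 genes 7 had entries, with 9 windows in all because Egfl7 had 3. At least 1 of these motifs stood in 5 of the 9 windows, 1 each of Flt1, Tie1 and Emcn and 2 of Egfl7, and in 39.2% of 32851 mouse promoter windows of the same length. Searched on both strands in the same windows, ACAAAG, letters bound by SOX factors, stood in 2 of the 9, 1 each of Tek and Egfl7 (16.5% of all windows), and TATAAA stood in that of Flt1 (12.4%). AGATAA, for GATA factors, and ACAATG, for SOX factors, stood in none of the 7 genes' windows (9.99% and 10.7% of all). Cdh5, Pecam1 and Icam2 had no entry.

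The receptors of vascular endothelial growth factor come first. Kdr, the main signalling receptor of this factor, had log2 signals of −1.27, −0.17 and −0.63 on PN1, PN2 and PN3, against 0.73, 0.63 and 0.25 on WT1, WT2 and WT3. The labelled groups did not overlap, and their means were −0.69 ± 0.55 and 0.54 ± 0.26 (SD, n = 3 each), a difference of −1.22 (2.34-fold lower). Kdr had values of 11.59, 11.05 and 11.03 in the table's columns PN1, PN2 and PN3, against 11.75, 11.21 and 8.83 in WT1, WT2 and WT3. There the groups overlapped, and column WT3 lay 2.65 log2 units under the mean of the other wild-type columns, while the other 5 columns lay within 11.03 to 11.75. The difference was 0.63 with WT3 and −0.26 without it.

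Flt1, a receptor that binds the same factor tightly and signals weakly, varied less. Its brighter probe gave −0.08, 0.67 and −0.10 on PN1, PN2 and PN3, against 0.88, 0.76 and 0.60 on WT1, WT2 and WT3, a difference of −0.58 with PN2 inside the range of the wild-type arrays. The dimmer probe gave −4.31, −1.98 and −3.20, against −2.22, −2.10 and −2.34, and was not well above background on PN1. PN2 was the highest of the 6 arrays for that probe and PN1 the lowest, so both probes placed PN1 and PN3 under the other 4 arrays. The table gave 11.63, 11.28 and 11.71 for the brighter probe in PN1, PN2 and PN3, against 11.74, 11.53 and 10.68 in WT1, WT2 and WT3. The groups overlapped for that probe, with a difference of 0.22, and of −0.095 without WT3. The dimmer probe had 9.21, 9.18 and 9.16 in the Perp-null columns, against 8.67, 8.56 and 6.63 in the wild-type columns. Its groups did not overlap, and it stayed higher in the Perp-null columns, by 1.23 with WT3 and by 0.57 without it.

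The TIE receptors had nearly the same profile as Kdr. Tek, the receptor of the angiopoietins, gave −1.71, −0.88 and −1.59 on PN1, PN2 and PN3, against −0.27, −0.21 and −0.64 on WT1, WT2 and WT3. Tie1, an orphan receptor that pairs with Tek, gave −1.75, −0.83 and −1.65, against 0.06, −0.21 and −0.46. For both genes the groups did not overlap, PN1 was the lowest array, and the differences were −1.02 for Tek (2.03-fold lower) and −1.21 for Tie1 (2.31-fold lower). The table's values for Tek were 10.88, 10.25 and 10.45 in the Perp-null columns, against 10.76, 10.38 and 8.39 in the wild-type columns. Tie1 had 10.92, 10.53 and 10.24, against 10.93, 10.57 and 8.09. WT3 lay under the next lowest column by 1.86 log2 units for Tek and by 2.15 for Tie1. The differences of 0.68 and 0.70 became −0.043 and −0.19 without WT3.

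**Figure D2:**
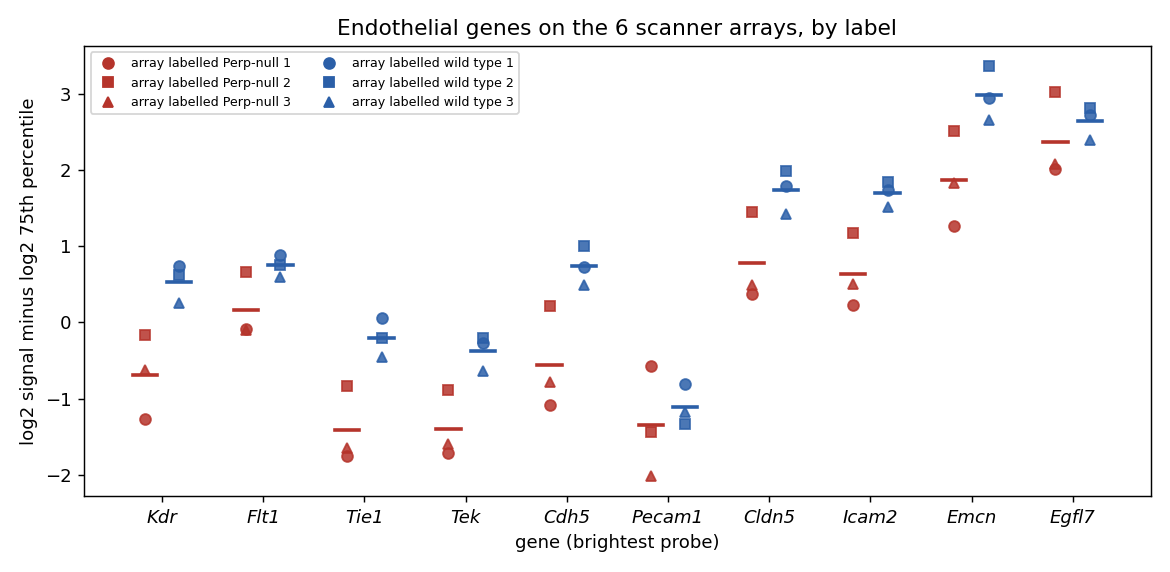
Log2 signal minus the log2 75th percentile of each array (y axis) for the brightest probe of each endothelial gene (x axis), on the 3 scanner arrays labelled Perp-null (red, left) and the 3 labelled wild type (blue, right), with a bar at each mean. Kdr, Tie1, Tek, Cdh5, Icam2 and Emcn do not overlap between the labelled groups, and the red circle and triangle, PN1 and PN3, lie lowest for every gene except Pecam1.

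Among the junction genes, the brighter probe of Cdh5, the cadherin of endothelial adherens junctions, gave −1.08, 0.21 and −0.79 on PN1, PN2 and PN3, against 0.73, 1.00 and 0.49 on WT1, WT2 and WT3. The means were −0.55 ± 0.68 and 0.74 ± 0.26 (SD, n = 3 each), a difference of −1.29 (2.45-fold lower), and the second probe gave −0.999 with the groups not overlapping either. The table gave the brighter probe 11.80, 11.39 and 11.04 in the Perp-null columns, against 11.72, 11.43 and 9.37 in the wild-type columns. That difference was 0.57, and −0.17 without WT3. The second probe differed there by 0.86, and by 0.155 without WT3, and the groups overlapped for both probes.

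Cldn5, the claudin of endothelial tight junctions, gave 0.38, 1.45 and 0.49 on PN1, PN2 and PN3, against 1.79, 1.99 and 1.42 on WT1, WT2 and WT3. PN2 lay just inside the wild-type range, and the difference was −0.96 (1.94-fold lower). Its table values were 12.64, 12.24 and 12.20 in the Perp-null columns, against 12.61, 12.34 and 11.37 in the wild-type columns. That difference was 0.25, and −0.12 without WT3, with the groups overlapping.

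Icam2, an adhesion molecule of endothelium and platelets, gave 0.23, 1.18 and 0.51 on PN1, PN2 and PN3, against 1.74, 1.84 and 1.51 on WT1, WT2 and WT3. Emcn, the sialomucin endomucin of capillaries and veins, gave 1.27, 2.51 and 1.83, against 2.94, 3.36 and 2.66. Neither gene overlapped between the labelled groups, and the differences were −1.06 (2.08-fold lower) and −1.12 (2.17-fold lower). The table's values for Icam2 were 12.70, 12.36 and 12.27 in the Perp-null columns, against 12.81, 12.47 and 11.38 in the wild-type columns. Emcn had 14.16, 13.49 and 13.57, against 13.96, 13.60 and 12.55. Both were lowest in WT3 and overlapped between the groups, and their differences of 0.22 and 0.37 became −0.20 and −0.040 without WT3.

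Pecam1, an adhesion molecule of endothelial contacts that platelets and white blood cells also carry, did not share this profile. It gave −0.57, −1.44 and −2.01 on PN1, PN2 and PN3, against −0.81, −1.33 and −1.18 on WT1, WT2 and WT3. PN1, the lowest array for 8 of the other genes, was its highest, and the difference of −0.23 was smaller than the SD of 0.73 among the arrays labelled Perp-null and turned to 0.10 without PN3. Pecam1 had table values of 9.59, 9.54 and 9.26 in the Perp-null columns, against 10.26, 9.83 and 10.56 in the wild-type columns. The groups did not overlap there, with a difference of −0.75, and WT3, the lowest column for the other 9 genes, was its highest. Its 1 probe was well above background on all 6 arrays.

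Egfl7, a protein that endothelial cells secrete into their matrix, gave 2.01, 3.02 and 2.07 on PN1, PN2 and PN3, against 2.72, 2.81 and 2.40 on WT1, WT2 and WT3. PN1 and PN3 were again the lowest arrays, but PN2 was the highest of all 6, and the difference was −0.28. Egfl7 had table values of 13.40, 13.32 and 13.56 in the Perp-null columns, against 13.48, 13.32 and 13.11 in the wild-type columns. Its range of 0.45 log2 units was the smallest of the 10 there, and the difference was 0.12.

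**Figure D3:**
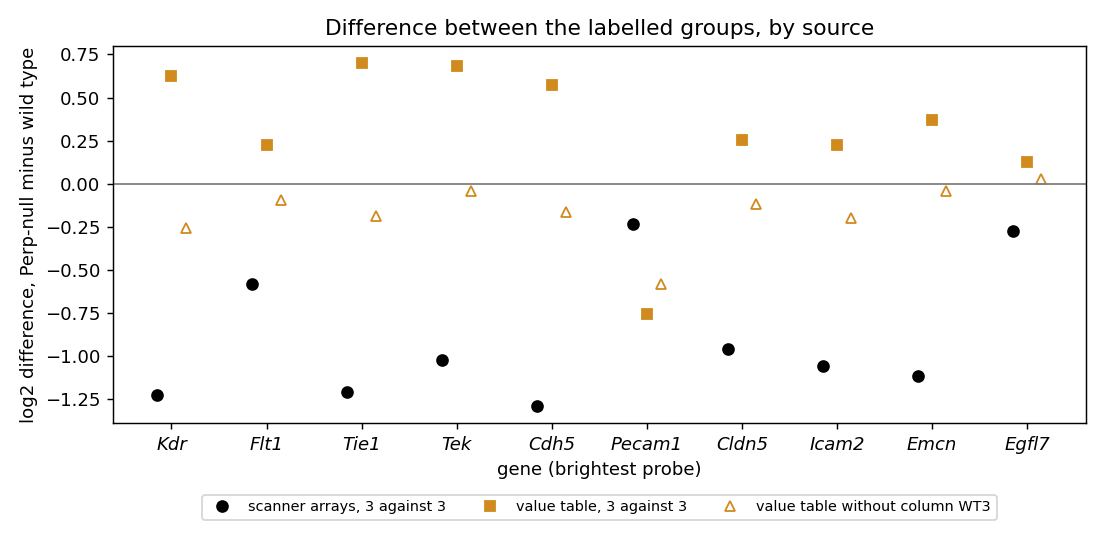
Difference of the mean log2 value, samples labelled Perp-null minus samples labelled wild type (y axis), for the brightest probe of each endothelial gene (x axis), on the scanner arrays (black circles), in the value table (orange squares) and in the value table without column WT3 (open triangles). The scanner differences lie between −1.29 and −0.23, the table's between −0.75 and 0.70, and those without WT3 between −0.58 and 0.027.

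Across the 10 genes the scanner arrays of the labelled groups did not overlap for 6, where 3.49% of all features had every array labelled Perp-null under every array labelled wild type. PN1 was the lowest array for 8 genes (19.6% of all features) and PN3 for 2, Flt1 and Pecam1 (4.75%). PN1 and PN3 were the 2 lowest arrays for 9 of the 10, against 3.6% of all features. These are the arrays labelled Perp-null on which Perp was high. Every gene had a larger SD among the arrays labelled Perp-null, 0.44 to 0.73, than among those labelled wild type, 0.14 to 0.35. With PN1, PN3 and WT2, the arrays opposed to their Perp label, left out, which leaves PN2 against WT1 and WT3, 9 of the 10 genes were still lower, with a median of −0.41 beside −0.38 over all features, and Egfl7 was higher by 0.46.

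By each gene's brightest probe, 1 gene among the table's columns, Pecam1, did not overlap between the groups with the Perp-null columns lower (24.4% of all features). None did so with them higher (18.8%). Column WT3 was the lowest for 9 of the 10 genes, as it was for 29.5% of features. Without it the median difference was −0.14, with a range of −0.58 to 0.027 and 9 of 10 genes lower, where 50.3% of features were. All 10 genes had a larger SD among the wild-type columns than among the Perp-null columns.

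The whole-array tests differed between the forms as well. On the scanner arrays 0 of 26676 features passed limma at an adjusted p of 0.05, and 630 had an unadjusted p under 0.05 (2.36%). With the replicate number as a block 1 feature passed. For the value table limma called 6270 (23.5%), 2306 higher (8.64%) and 3964 lower (14.9%) in the columns labelled Perp-null. None of the 10 endothelial genes was among them, and 1, Pecam1, had an unadjusted p under 0.05, as did 35.8% of all features. Perp had the smallest p, with a difference of −9.31 (SE 0.24, limma with Benjamini-Hochberg adjustment, adjusted p = 6.15e-06). Below the table's median level 44.6% of features passed, against 2.41% at or above it, and all 10 endothelial genes lay above it. The raw signals of negative control spots on the partner arrays had medians of 37.5 for column PN1 and 32 for PN3, against 90 for WT1, 80 for WT2 and 127 for WT3. The part of this background in the table's calls was not tested. The count of 6270 fell to 2663 (9.98%) without WT3, to 788 without PN3, to 1 without PN2 and to 1 with the replicate number as a block.

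Co-variation among the 10 genes was close in both forms, and is given without a p because the genes share their arrays and were chosen for a shared direction. Over the 6 scanner arrays the 45 pairs of genes had a median Pearson r of 0.96, against 0.086 over all pairs of features. With so few arrays r spreads widely, and over all pairs its 75th percentile was 0.66 and its 95th 0.978. The lowest r among the 45 pairs was −0.095, and the 36 pairs without Pecam1 had a median of 0.97 and a minimum of 0.72. Cdh5 and Icam2 were the closest pair, at 0.996. Taken as deviations from the means of the labelled groups, the median was 0.93, against 0.097 over all pairs, so the genes moved together within the groups too. The 75th and 95th percentiles over all pairs were then 0.74 and 0.985. The relation was looser without PN1 and PN3, the arrays farthest from the median of the genes' mean. Over the other 4 arrays the median r was 0.735, under the 75th percentile of 0.768 over all pairs, whose median was 0.19.

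Each gene was also set against the mean of the other 9. Tek followed that mean on the scanner arrays with r 0.997, Cldn5 with 0.990, Icam2 and Cdh5 with 0.988, Tie1 with 0.985 and Flt1 with 0.974. Emcn and Kdr had 0.955, Egfl7 0.78 and Pecam1 0.052. In the value table, which holds 5 of the same hybridisations and is no independent sample, the 45 pairs had a median r of 0.94. Over all pairs of features the median was −0.006, the 75th percentile 0.51 and the 95th 0.91. The 36 pairs without Pecam1 again had a median of 0.97, while Pecam1 ran against the mean of the others with r −0.57. Without WT1 and WT3, the columns farthest from the median, the 45 pairs had a median of 0.60 over 4 columns. Over all pairs the median was then 0 and the 75th percentile 0.55.

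**Figure D4:**
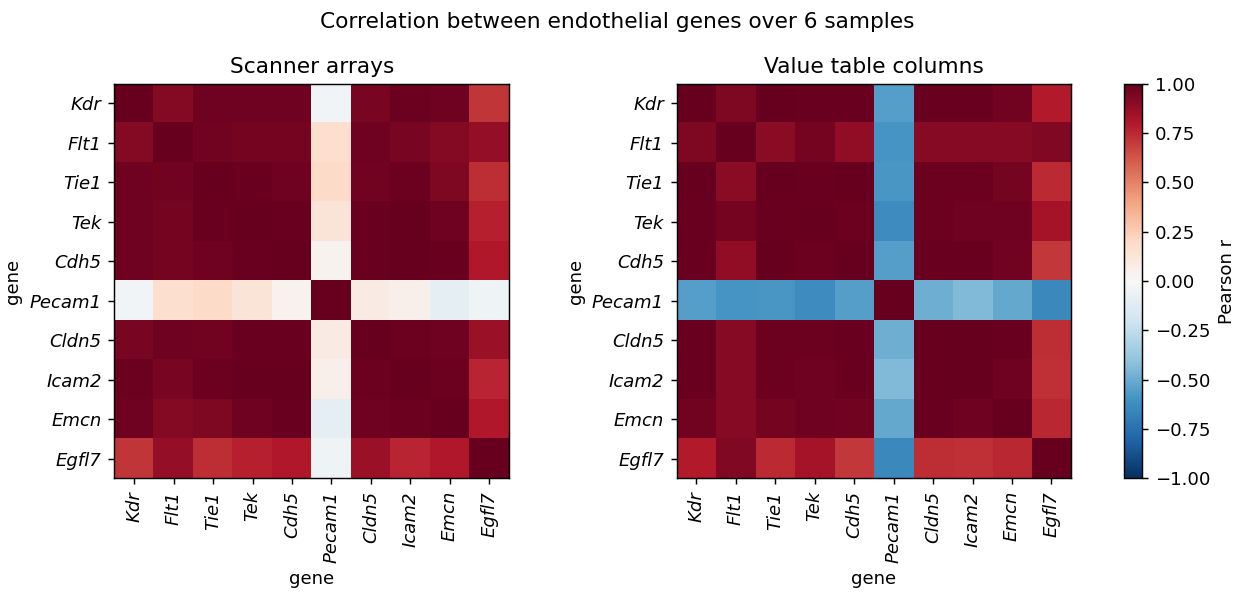
Pearson r between each pair of the endothelial genes (both axes, colour from −1 to 1) over the 6 scanner arrays (left) and the 6 columns of the value table (right). Pecam1 is the pale row and column on the left and the blue one on the right. The 36 other pairs are all at or above 0.72 on the scanner arrays and 0.71 in the value table.

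Genes with the most similar profile were sought among those well above background on all 6 arrays, by the root mean square difference from the mean centred profile of the 10 over the 6 samples. The closest on the scanner arrays was Rasip1, a regulator of vessel lumen formation, at 0.041 log2 units, followed by Eng, the endothelial TGF-beta co-receptor endoglin, at 0.099. Rgs16, a regulator of G-protein signalling, had 0.11, Fzd4, a Wnt and norrin receptor, 0.11, and Gbp2, an interferon-induced GTPase, 0.11. Apln, the ligand of the apelin receptor, had 0.12, and Ednra, an endothelin receptor, and Tmem88, a membrane protein, had 0.13. In the value table the 8 closest were Hspa12b at 0.055, Dab2 at 0.066, Map3k5 at 0.074, Trps1 and Nav1 at 0.078, Rasip1 at 0.081, Robo4 at 0.083 and Ctso at 0.085. Rasip1 was on both lists, with 0.041 and 0.081. The lists were drawn from 13226 candidates on the scanner arrays and 13261 in the table, and most genes lay farther off in the other form. There the 8 scanner genes ran from 0.081 for Rasip1 to 0.47 for Gbp2. The table's 8 ran from 0.041 for Rasip1 to 0.53 for Ctso on the scanner arrays.

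Other genes of endothelium and of vessel growth, 96 listed and 94 measured, were examined for the same contrast. On the scanner arrays none of them passed (limma, 27 at an unadjusted p under 0.05, beside 2.36% of all features), 83 were lower on average in the samples labelled Perp-null, beside 61% of all features, and their median difference was −0.47. All 31 other surface and junction genes were lower, with a median of −0.84, and 19 of them did not overlap, beside 3.49% of all features. Cd93, a C-type lectin receptor of endothelium, had 1.48, 2.14 and 1.43 on PN1, PN2 and PN3, against 2.82, 3.08 and 2.44 on WT1, WT2 and WT3. Vwf, the clotting factor stored in endothelium, had 0.27, 0.92 and 0.84, against 2.06, 1.58 and 1.47. Aplnr, the apelin receptor, differed by −0.82, Cd34, a sialomucin of endothelium and progenitor cells, by −0.98, Thbd, the anticoagulant thrombomodulin, by −0.72, and Ramp2, a receptor partner for adrenomedullin, by −0.46.

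Of 22 measured endothelial transcription factors 18 were lower on the scanner arrays, with a median of −0.45. Fli1, Ets1 and Erg, the ETS factors named above, differed by −1.31, −0.89 and −0.27, Sox18 by −0.91 and Lyl1 by −0.72. In the value table Fli1, Ets1, Erg and Sox18 were higher, by 0.96, 0.42, 0.90 and 0.72, and Lyl1 differed by −0.14. The brightest of the list, Klf4, Hey1 and Epas1, differed by 0.044, 0.0046 and −0.25 on the scanner arrays. Of 19 ligands 14 were lower, beside 61% of all features, with a median of −0.18. Vegfa, the growth factor that Kdr and Flt1 bind, had 1.65, 2.37 and 1.77 on PN1, PN2 and PN3, against 1.79, 1.90 and 1.80 on WT1, WT2 and WT3, a difference of 0.098. PN2 was its highest array and PN1 its lowest, and the groups overlapped. Vegfc, the growth factor of lymphatic vessels, differed by −1.12, Apln by −0.82, Angpt2, an angiopoietin that destabilises vessels, by −0.65, Angptl4 by −0.42 and Efnb2, an arterial ephrin, by −0.18.

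Partners and negative regulators of these receptors were lower for 16 of 19, with a median of −0.33. Notch4, an endothelial Notch receptor, differed by −0.71, Ptprb, the phosphatase that acts on Tek, by −0.80, Plxnd1, a semaphorin receptor, by −0.59 and Svep1 by −0.54. The bright members Nrp2, Jag1 and Dusp6 differed by −0.40, −0.47 and 0.010. Of 18 genes of arteries, veins and lymphatic vessels 16 were lower, with a median of −0.25, among them the arterial connexin genes Gja4 and Gja5 at −0.86 each. The same 5 lists had value-table medians of 0.25 for surface genes, −0.005 for transcription factors, 0.28 for ligands, 0.15 for receptor partners and 0.0083 for arteries, veins and lymphatics. Without WT3 these were −0.09, −0.049, 0.14, −0.098 and −0.063.

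Of the 94 genes, 11 passed limma in the value table, where 23.5% of all features passed. That share depended on signal level. Below the table's median level, where 44.6% of all features passed, lay 6 of the 11. The other 5 lay at or above it, where 2.41% of all features passed. How the 94 genes divide between these levels was not counted. The 11 are named here after their values were seen. Higher in the columns labelled Perp-null were Egfl6, an EGF-domain protein, by 1.503, Flt4, the receptor of Vegfc, by 1.24, the ETS factor Erg and the adaptor She by 0.90 each, and Angpt4 by 0.83 (limma adjusted p from 0.0216 to 0.0484). All 5 lay below the median level of the table, at a mean of 7.29 to 7.64 against a median of 9.06 over the features tested. Lower were Etv2, an early endothelial ETS factor, by −2.79, Sh2d2a by −1.81, Prox1, the regulator of lymphatic identity, by −1.48, Arhgef15 by −1.26, the adhesion gene Esam by −1.24 and Ccl21a by −1.11 (adjusted p from 0.0216 to 0.0433). Etv2 had 8.26, 7.63 and 7.12 in the Perp-null columns, against 10.11, 9.70 and 11.56 in the wild-type columns, so WT3, the lowest column for 9 of the 10 endothelial genes, was the highest for it. Esam, the brightest of the 11, had 11.34, 10.86 and 10.34, against 11.78, 11.86 and 12.62, again highest in WT3. Without WT3, 7 of the 11 passed, and Esam, Arhgef15, Ccl21a and Angpt4 did not (adjusted p from 0.0591 to 0.148). Of the 94 genes 2 passed without PN3, 0 without PN2 and 0 with the replicate number as a block, so all 11 calls were lost on leaving out PN2. On the scanner arrays none of the 11 passed.

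Markers of other cells moved with the endothelial genes on the scanner arrays, and their part in the difference was not tested. The summed signal of the 10 endothelial genes, in units of each array's 75th percentile, was 12.01, 23.9 and 13.6 on PN1, PN2 and PN3, against 28.7, 32.2 and 23.0 on WT1, WT2 and WT3. That of 15 macrophage genes was 9.40, 10.1 and 12.4, against 17.2, 18.1 and 17.99, with all 15 lower (median −0.80). That of 14 genes of dental mesenchyme was 64.0, 110.7 and 139.4, against 173.5, 195.0 and 151.6, again with all 14 lower (median −0.90). PN1 was the lowest array for all 3 sums, but PN3, next to lowest for the endothelial sum, was the highest Perp-null array for the other two. Mural cells, the pericytes and smooth muscle around vessels, summed to 43.5, 53.6 and 44.0, against 57.7, 61.8 and 63.0, with 13 of 14 genes lower (median −0.31). Among them Pdgfrb, the receptor that recruits pericytes, differed by −0.92, Kcnj8 by −1.39, Higd1b by −0.68 and Notch3 by −0.52, while the smooth muscle genes Acta2 and Tagln differed by −0.11 and −0.084.

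The other lists varied in direction on the scanner arrays. Dental epithelium, whose brightest genes were Amelx, Krt5 and Krt14, summed to 391.4, 302.1 and 457.5 on PN1, PN2 and PN3, against 460.8, 408.9 and 370.9 on WT1, WT2 and WT3, with 6 of 14 genes lower (median 0.036). Skeletal muscle summed to 12.2, 4.32 and 29.4, against 6.76, 4.68 and 7.48, with 11 of 12 genes higher (median 0.79, 39% of all features higher). Cell division genes were higher for 15 of 15 (median 0.48) and summed to 94.9, 116.5 and 56.1, against 44.5, 48.9 and 94.8, so that WT3 lay with PN1. The next counts stand beside the 61% of all features that were lower. Of 11 red cell genes 8 were lower (median −0.18), of 8 platelet genes 7 (median −0.45), of 10 nerve genes 7 (median −0.34) and of 12 genes induced by low oxygen 9 (median −0.12). Lists of hard tissue had lower medians too. Of 12 odontoblast and bone genes 10 were lower (median −0.42), with a summed signal of 151.5, 127.8 and 260.9 on PN1, PN2 and PN3, against 249.9, 286.2 and 216.3 on WT1, WT2 and WT3. Of 13 cartilage genes 11 were lower (median −0.91), with 17.6, 12.8 and 35.5, against 35.5, 32.6 and 20.9. In both sums PN2 was the lowest array and PN3 lay within the range of the wild-type arrays. In the value table the median difference was −0.11 for skeletal muscle and 0.57 for red cells, so both turned direction. It kept its sign there for the other lists of this paragraph. Every gene of these lists that had a probe on the array, counted before the filter on dim probes, was well above background on at least 1 array.

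Column WT3 was the lowest of the value table for the summed level of macrophage genes, with 35015, 29829 and 21225 in PN1, PN2 and PN3, against 34372, 35867 and 17608 in WT1, WT2 and WT3 on the linear scale. It was the lowest for dental mesenchyme too, with 335702, 291792 and 206734, against 338338, 300548 and 145072. The 10 endothelial genes summed to 56563, 42557 and 44650 there, against 55944, 45349 and 25025. Median differences were 0.35 for macrophages, 0.11 for mesenchyme and 0.25 for mural cells, and −0.24, −0.24 and −0.068 without WT3. Their part in the table's endothelial difference was not tested.

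**Figure D5:**
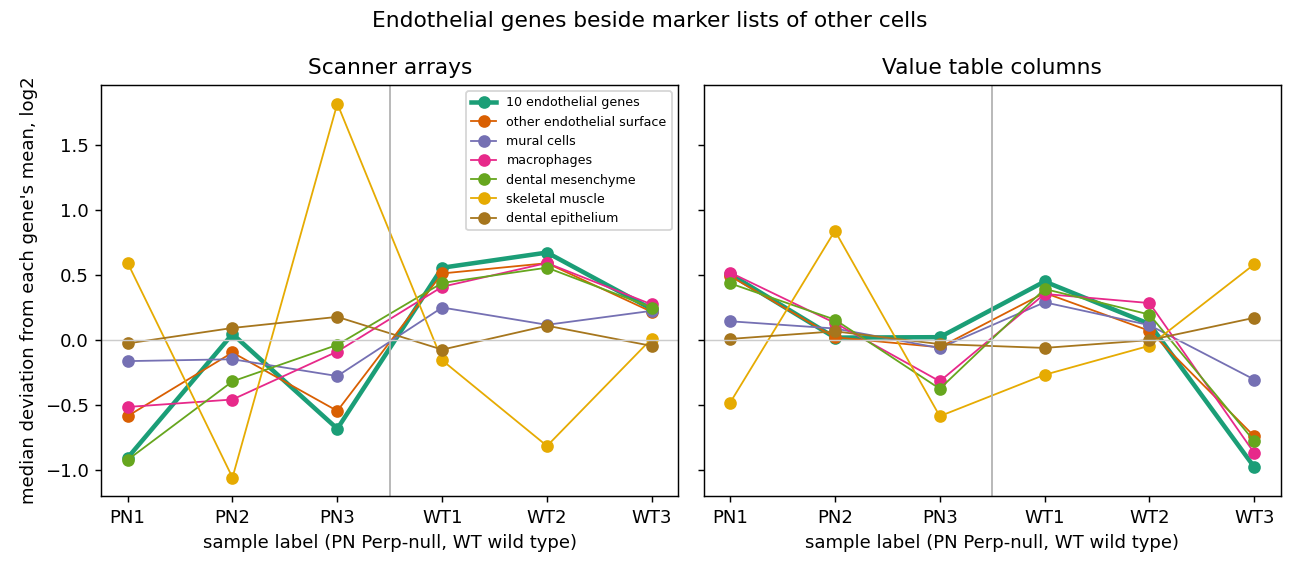
Median over each marker list of the genes' log2 deviation from their own mean over 6 samples (y axis), by sample label (x axis, Perp-null left), on the scanner arrays (left panel) and in the value table (right panel). The endothelial genes (thick line) run near the mesenchyme list at PN1, and near both the macrophage and mesenchyme lists at WT1, WT2 and WT3, of the scanner arrays and at every column of the table except PN3, while skeletal muscle runs apart from them.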

How the data were processed

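Each of 6 samples was measured on 1 single-colour array of 41174 gene probes. The deposited scanner files hold spot intensities after background subtraction, not scaled between arrays, per the file headers. The authors extracted them with Agilent Feature Extraction, given as 10.3 in the submitters' processing notes. Per the file headers the version was 10.5.1.1. The deposited table of log2 values does not state its processing. Against the scanner files 5 of its 6 columns were monotone in the raw median spot signal of an array, without background subtraction. Column PN2 was so in no array. Quartiles of all 6 columns lay within 0.03 of each other, with column medians of 8.36 to 8.39. The table's scale and centring were thus settled, and the direction within those 5 columns, but not how column PN2 was processed. Why columns pair with arrays of other labels was not settled either. RefSeq accessions, looked up in a gene table of GRCm38.p6, named 24844 probes (60.3%).

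From the scanner files, the processed signal was put on the log2 scale and each array's 75th percentile over non-control spots subtracted. Control spots and spots with an outlier flag were left out, and no gene spot was saturated. Features were kept where well above background on at least 3 arrays (26676 in all), with the probe of highest mean for a gene of several probes. Between 72.8% and 82.3% of gene probes were above background on an array, and the number of arrays limits the precision. The test was limma's (version 3.58.1, under R 4.3.3; lmFit, eBayes with trend, Benjamini-Hochberg adjustment over all features, threshold 0.05), and the procedure was tested on simulated data. The value table was fitted in the same way on the same features.

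The genes, the gene lists and the tests were chosen with earlier results of these data known. Beside the 10 genes, the text names the 3 brightest genes of each list, in endothelial, vascular and mural lists also the 4 with the smallest p, and the 8 genes closest in profile. For several other lists it gives only the list's count and median. Alternatives were other background corrections, normalizations, filters and probe rules, kept outlier spots, eBayes without trend, the value table, the replicate number as a block and leaving out each array. Leaving out 3 arrays against the Perp label, and the block and left-out columns in the value table, were added after seeing the data. Deviations from the group means correlated between same-numbered arrays at 0.843, 0.876 and 0.193. No label speaks of pairs, however, and the number is also the position on the slide. In the value table these correlations were 0.408, 0.393 and −0.023, and whether same-numbered samples are pairs was not settled in either form.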

Additional observations from a re-analysis of the deposited data

How the results depend on the processing

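The value table turned the direction seen on the scanner arrays. In it 1 of the 10 genes was lower in the samples labelled Perp-null, the median difference over the 10 was 0.31 and that over 31 other endothelial surface genes 0.25, and 6270 features and 11 other endothelial genes passed limma. The gene differences were 0.63 for Kdr, 0.22 for Flt1, 0.70 for Tie1, 0.68 for Tek, 0.57 for Cdh5, 0.25 for Cldn5, 0.22 for Icam2, 0.37 for Emcn and 0.12 for Egfl7. With the replicate number as a block these differences, medians and counts of lower genes were the same, and 1 feature passed. On the scanner arrays 1 feature passed with the replicate number as a block, and 1 with normexp and 75th percentile scaling, and the block changed no other call there.

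Leaving out 1 sample at a time, in either form, gave 0 to 5899 features passed, 0 to 13 other endothelial genes passed and 1 to 10 genes lower. The median over the 10 ran from −1.31 to 0.59 and that over the surface genes from −1.02 to 0.46. Single genes ran from −1.48 to 1.203 for Kdr, −0.84 to 0.44 for Flt1, −1.50 to 1.23 for Tie1, −1.28 to 1.14 for Tek, −1.67 to 1.01 for Cdh5, −0.95 to 0.10 for Pecam1, −1.30 to 0.51 for Cldn5, −1.33 to 0.52 for Icam2, −1.44 to 0.67 for Emcn and −0.60 to 0.21 for Egfl7. All upper ends except that of Pecam1, reached without PN3 on the scanner arrays, come from the value table. On the scanner arrays alone the median stayed between −1.31 and −0.84, and 9 or 10 genes were lower. Without the 3 arrays whose Perp signal opposed the labels, 12078 features and 29 other endothelial genes passed, with 1 array labelled Perp-null assumed to vary like the others. That fit held 26625 features, beside the 94 other endothelial genes measured, so the 29 were a smaller share than the 12078. With 1 array in a group the spread there is unknown, so no conclusion is drawn from either count. The medians without these 3 arrays were −0.41 over the 10 and −0.47 over the surface genes, Egfl7 was 0.46, and the median over all features was −0.38. The cause of these changes was not tested. The median correlation of the 10 genes ran from 0.91 to 0.98 over the scanner alternatives and was 0.94 in the value table, and 0.75 there without WT3.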
